A study of Pinus pinaster with 14 samples.

Results

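Young needles and cotyledons, the leaf types of a maritime pine seedling, were compared in matched tissues: young needle mesophyll against cotyledon mesophyll, and young needle vascular tissue against cotyledon vascular tissue. These were 4 of the 14 laser-microdissected libraries of the series, chosen by their labels. Of the 23493 transcripts in the table, 14522 (61.8%) reached a normalised value of 10 in at least 1 of the 4 libraries and are called measured here. All material came from Pinus pinaster seedlings of the Oria provenance, grown in soil in a culture chamber and labelled as 1 month old. Laser microdissection cuts chosen cells from a frozen section. The little RNA it yields was amplified as cDNA before pyrosequencing. Each tissue of each organ was 1 library, the labels name no seedling for any library, and no difference between 2 libraries has a replicate check.

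Cotyledons are formed in the pine embryo and are the leaves a seedling opens at germination, when they draw on seed reserves and begin photosynthesis. Young needles are made later by the shoot apex. In both, mesophyll is the photosynthetic ground tissue, and the vascular tissue inside it holds the xylem that brings water and the phloem that exports sugar. The table carries assembly identifiers that are not paired with gene names or sequences, so transcripts appear by identifier, their functions are not given, and the labelled tissues could not be checked against marker genes.

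The leaf libraries were of similar depth but differed in how many transcripts they contained. Reads numbered 811037 in young needle mesophyll, 883851 in cotyledon mesophyll, 850625 in young needle vascular tissue and 844745 in cotyledon vascular tissue. At an equal depth of 811037 reads, the expected number of transcripts with reads was 8635 in young needle mesophyll and 11101 in cotyledon mesophyll. In vascular tissue it was 11856 in young needles and 9585 in cotyledons. Young needles thus had the less varied mesophyll library and the more varied vascular library. The 10 most abundant transcripts held 13.6% of reads in young needle mesophyll and 9.37% in cotyledon mesophyll, against 4.99% in young needle vascular tissue and 11.4% in cotyledon vascular tissue. Spearman correlations of levels on the log2(value + 5) scale across the measured transcripts were low for both matched pairs, at 0.220 between the mesophyll libraries and 0.185 between the vascular libraries. They were 0.0715 between the tissues of young needles and 0.209 between those of cotyledons. Both libraries richer in transcripts were far closer to a hypocotyl library: the correlation was 0.761 for the vascular libraries of young needle and hypocotyl, and 0.733 for cotyledon mesophyll with the pith. These correlations describe the libraries, since transcripts are not independent replicates.

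Over 40% of the measured transcripts differed 4-fold or more between leaf types in each tissue, and on the deposited scale the balance of direction was opposite in the 2 tissues. The rule was a difference of 2 or more in log2(value + 5), young needle minus cotyledon, where adding 5 understates the change of low transcripts. In mesophyll, 2304 transcripts were higher and 4164 lower in young needles, which is 15.9% and 28.7% of those measured, 44.5% in all. In vascular tissue, 3814 were higher and 2386 lower, or 26.3% and 16.4%, 42.7% in all. With 1 library a group these are counts by size, with no test. The mesophyll balance turned with 25 added in place of 5, to 1238 higher and 884 lower (956 and 830 in vascular tissue), and among transcripts with a mean value of 50 or more over the 4 libraries, to 951 higher and 911 lower (611 and 563 in vascular tissue). Just inside the threshold, within 0.1 on the log2 scale, lay 297 transcripts in mesophyll and 217 in vascular tissue, and just outside it 251 and 253.

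Differences carried large shares of the reads. The sets were chosen by their values in the libraries compared, so the contrast between leaf types in each share follows from the rule. The 2304 transcripts higher in young needle mesophyll held 55.4% of its reads, against 6.22% in cotyledon mesophyll. The 4164 lower transcripts held 1.12% of young needle mesophyll reads and 43.3% of cotyledon mesophyll reads. In vascular tissue the 3814 higher transcripts held 41.0% of young needle and 1.13% of cotyledon reads, and the 2386 lower ones 3.73% of young needle and 40.4% of cotyledon reads.

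Many differences were between some reads and none. Of the transcripts lower in young needle mesophyll, 2986 (71.7%) had no reads there, and of those higher in it, 1115 (48.4%) had none in cotyledon mesophyll. In vascular tissue, 2953 (77.4%) of the higher transcripts had no reads in cotyledons, and 1437 (60.2%) of the lower ones had none in young needles. In each tissue the more frequent direction pointed to the library with more transcripts detected. What part the number of detected transcripts had in these counts was not tested.

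Direction changed with abundance. Among 8497 measured transcripts with a mean value under 25 over the 4 leaf libraries, 9.87% were higher and 27.4% lower in young needle mesophyll. Among the 238 with a mean of 400 or more, 28.6% were higher and 9.24% lower. Vascular tissue ran the other way: 29.0% were higher and 14.2% lower in young needles under 25, against 4.62% higher and 14.3% lower at 400 or more. The surplus of lower transcripts in mesophyll and of higher ones in vascular tissue therefore came from the less abundant transcripts. After quantile normalisation of the 4 libraries the mesophyll split was 3015 higher and 3371 lower and the vascular one 3151 higher and 2799 lower.

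**Figure D1:**
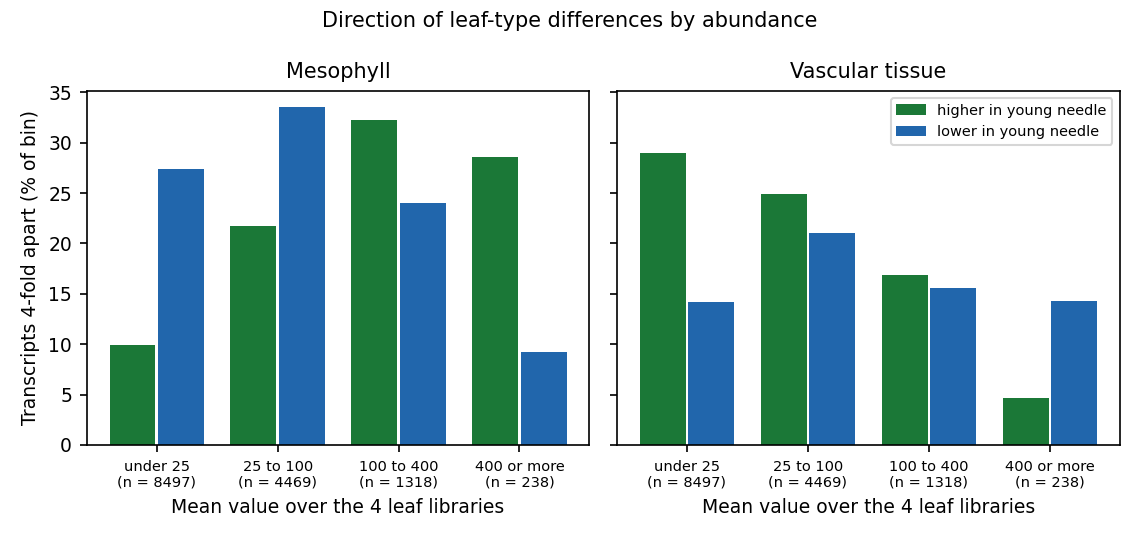
Share of measured transcripts that differ 4-fold or more between young needle and cotyledon (vertical axis, % of bin) by mean normalised value over the 4 leaf libraries (horizontal axis), in mesophyll and in vascular tissue. Green bars are higher and blue bars lower in young needles. In mesophyll lower transcripts prevail under 25 (27.4% against 9.87% higher) and higher ones at 400 or more (28.6% against 9.24% lower), and in vascular tissue the reverse is seen.

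Leaf-type differences shared by both tissues were found for 783 transcripts, 305 higher and 478 lower in young needles. A further 1053 were 4-fold apart in both tissues in opposite directions: 834 were lower in young needle mesophyll and higher in young needle vascular tissue, and 219 were higher in mesophyll and lower in vascular tissue. Of the 1836 transcripts 4-fold apart in both tissues, 42.6% thus had the same direction. The 2 steps share no library, and the Spearman correlation of their log2 differences across the 14522 measured transcripts was -0.031. By abundance it was -0.0091 for a mean under 25, -0.032 from 25 to 100, 0.027 from 100 to 400 and 0.19 for the 238 transcripts at 400 or more. At 100 or more, same and opposite directions were about equally frequent, with 133 against 125 from 100 to 400 and 11 against 11 at 400 or more.

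**Figure D2:**
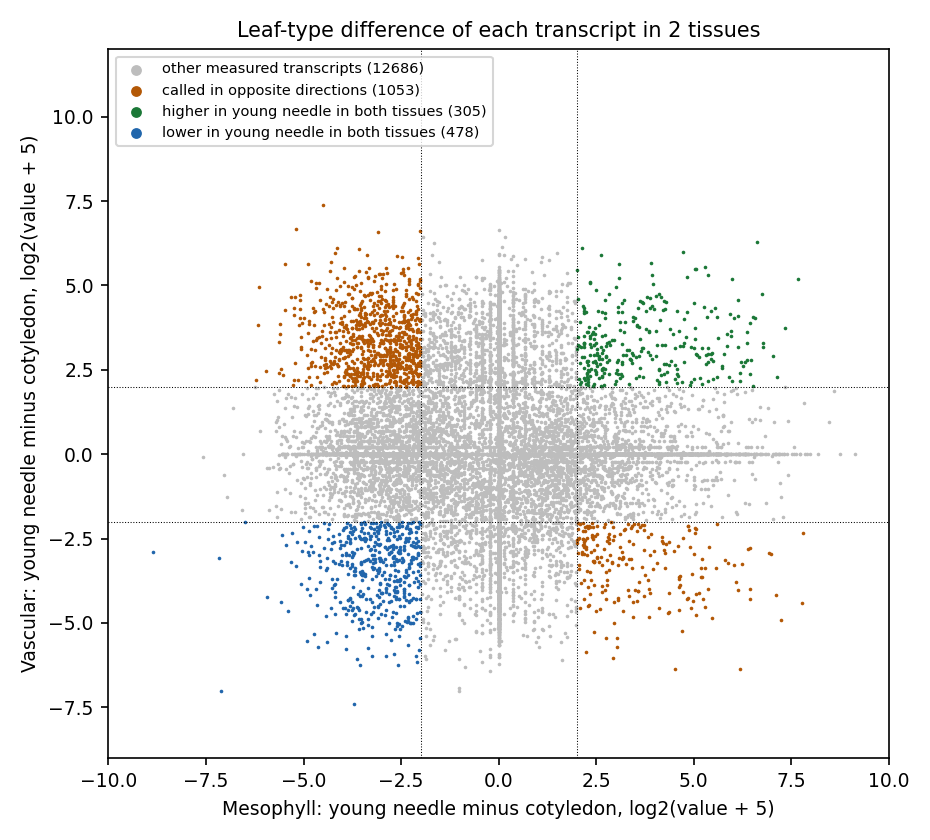
Log2 difference between young needle and cotyledon for each of 14522 measured transcripts, in mesophyll (horizontal axis) and vascular tissue (vertical axis), on the log2(value + 5) scale. Dotted lines mark 4-fold. The 305 green and 478 blue transcripts share their direction, and the 1053 orange ones do not. Points along the axes have no reads, or equal values, in both libraries of a tissue.

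Shared direction was about as frequent as the background share among transcripts seen in both tissues. Over all measured it lay below, but there transcripts seen in 1 tissue cannot overlap. To set the overlap against transcripts that could be seen in both tissues, counts were restricted to the 5962 with a value of 10 or more in at least 1 library of each tissue. Of the 1064 higher in young needle mesophyll among them, 305 (28.7%) were also higher in vascular tissue, where 27.9% of the 5962 were. These 305 were 18.4% of the 1662 higher in vascular tissue, where 17.8% of the 5962 were higher in mesophyll. For the 2423 lower in young needle mesophyll, 478 (19.7%) were also lower in vascular tissue, where 19.2% of the 5962 were, and they were 41.7% of the 1146 lower in vascular tissue, where 40.6% of the 5962 were lower in mesophyll. The 834 lower in mesophyll and higher in vascular tissue lay above the background among these 5962. They were 34.4% of those lower in mesophyll, against 27.9%, and 50.2% of those higher in vascular tissue, against 40.6%. The 219 in the other orientation were 20.6% of those higher in mesophyll, against 19.2%, and 19.1% of those lower in vascular tissue, against 17.8%. Among the 5962 the counts of 305 and 478 are thus near the background. Over all 14522 measured transcripts every overlap lay below it. Of the 14522, 4053 reached 10 in mesophyll alone and 4507 in vascular tissue alone. A 4-fold difference needs a value of at least 15, so these cannot be apart in both tissues. The filter thus lowers every overlap in advance, and no result is drawn from the deficit. Over the 14522 the 834 were 20.0% of those lower in mesophyll, against 26.3%, and 21.9% of those higher in vascular tissue, against 28.7%. The 305 were 13.2% of those higher in mesophyll, against 26.3%, and the 478 were 11.5% of those lower in it, against 16.4%. The place of the 834 thus depended on the restriction, and no test was made of these shares.

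The 305 transcripts higher in young needles in both tissues were more abundant in the needle mesophyll than in the needle vascular library. Their median level on the log2(value + 5) scale was 7.55 in young needle mesophyll and 2.91 in cotyledon mesophyll, against 5.89 in young needle vascular tissue and 2.32 in cotyledon vascular tissue, where 2.32 is the level of a transcript without reads. The gap between the needle libraries was not particular to these 305. In young needle mesophyll the median level was 7.57 for the 219 higher in young needle mesophyll and lower in young needle vascular tissue. In young needle vascular tissue it was 6.0 for the 834 of the other orientation. The 305 held 7.38% of young needle mesophyll reads and 4.17% of young needle vascular reads. The transcript with the largest difference common to both tissues was isotig45837. It stood at 490 in young needle mesophyll (334 reads) and had no reads in cotyledon mesophyll. In vascular tissue it stood at 792 in young needles (1034 reads) and 5.26 in cotyledons (6 reads). Both needle libraries lay far above both cotyledon libraries: its mesophyll value was at least 194-fold higher, taking 3 reads as the limit for a library without any, and its vascular value 151-fold higher (95% exact interval 69.0 to 412, counting error only). Next came unigene3560, at 192 in young needle mesophyll (131 reads) and 231 in young needle vascular tissue (301 reads), with no reads in either cotyledon library. That is at least 76.2-fold higher in mesophyll and at least 87.7-fold in vascular tissue. These transcripts differed in the other 10 libraries. isotig45837 was at 1191 in developing root vascular tissue and 304 in emerging needles, while unigene3560 did not exceed 68.1, its value in hypocotyl vascular tissue, in any of them.

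The 478 transcripts lower in young needles in both tissues were most abundant in cotyledon vascular tissue. Their median log2(value + 5) level was 2.32 in young needle mesophyll and 5.69 in cotyledon mesophyll, against 2.32 in young needle vascular tissue and 6.34 in cotyledon vascular tissue. The gap between the cotyledon libraries was not particular to these 478. In cotyledon vascular tissue the median level was 6.36 for the 219 higher in young needle mesophyll and lower in young needle vascular tissue. In cotyledon mesophyll it was 5.73 for the 834 of the other orientation. The 478 held 0.161% of young needle mesophyll and 5.97% of cotyledon mesophyll reads. In vascular tissue they held 0.534% of young needle and 7.57% of cotyledon reads. unigene17400 stood at 4.40 in young needle mesophyll (3 reads) and 1309 in cotyledon mesophyll (1556 reads), a ratio of 0.00336 (95% exact interval 0.000693 to 0.00985). In vascular tissue it stood at 0.766 in young needles (1 read) and 736 in cotyledons (840 reads), a ratio of 0.00104 (2.63e-05 to 0.00582). It was not a cotyledon transcript alone, with 2364 in hypocotyl cortex and 496 in developing root cortex. isotig23003 had no reads in either young needle library, and stood at 146 in cotyledon mesophyll and 227 in cotyledon vascular tissue, at least 33.3-fold and 98.7-fold lower in young needles.

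Differences seen in mesophyll, with under 2-fold between leaf types in vascular tissue, numbered 1415 higher and 2208 lower in young needles. Most of these transcripts were at low values in the vascular libraries. A vascular library reached a value of 10 for 255 of the 1415 and 595 of the 2208, so that for the others a vascular difference was not detectable. Both vascular libraries reached 10 for 211 and 558. Among these, unigene11539 was at 998 in young needle mesophyll (680 reads) and 0.842 in cotyledon mesophyll (1 read), a ratio of 1186 (95% exact interval 212 to 46911). In vascular tissue it was at 85.1 in young needles and 40.3 in cotyledons, a log2(value + 5) difference of 0.99, just under 2-fold on that scale. This was 1.06 with 1 added, 1.19 with each library scaled to its own total and 1.03 after quantile normalisation, each past 2-fold. isotig13749 was at 732 in young needle mesophyll (499 reads) with no reads in cotyledon mesophyll, at least 290-fold higher, and at 63.6 in young needle vascular tissue and 118 in cotyledon vascular tissue. For both transcripts young needle mesophyll was the highest and cotyledon mesophyll the lowest of the 4 libraries.

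For the set of 2208 lower in young needle mesophyll the median value was 0 in young needle mesophyll and 42.1 in cotyledon mesophyll, and 0 in both vascular libraries. The 2 named transcripts, chosen to be present in both vascular libraries, lacked reads in young needle mesophyll alone. unigene20987 had no reads there, against 945 in cotyledon mesophyll (1123 reads), at least 215-fold lower, while the vascular libraries were close, at 460 in young needles and 486 in cotyledons (ratio 0.945, 95% exact interval 0.841 to 1.06). isotig29516 also had no reads in young needle mesophyll, against 343 in cotyledon mesophyll (407 reads), at least 77.8-fold lower. Its vascular values were 258 in young needles and 160 in cotyledons, a log2 difference of 0.67 that became 1.03, past 2-fold, after quantile normalisation.

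Differences seen in vascular tissue, with under 2-fold between the mesophyll libraries, numbered 2202 higher and 1334 lower in young needles. A mesophyll library reached a value of 10 for 193 of the 2202 and 181 of the 1334, and both did for 172 and 156. unigene2226 was at 534 in young needle vascular tissue (697 reads) and 2.63 in cotyledon vascular tissue (3 reads), a ratio of 203 (95% exact interval 69.2 to 987). Its mesophyll values were 1051 in young needles and 988 in cotyledons, so cotyledon vascular tissue was the low library of the 4. isotig31442 was at 273 in young needle vascular tissue (356 reads) with no reads in cotyledon vascular tissue, at least 104-fold higher, and at 51.4 and 40.4 in young needle and cotyledon mesophyll.

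Both named transcripts lower in young needle vascular tissue alone each had 1 read there. isotig29838 was at 0.766 in young needle vascular tissue and 452 in cotyledon vascular tissue (516 reads), a ratio of 0.00169 (95% exact interval 4.28e-05 to 0.00948), and at 64.6 in young needle mesophyll and 122 in cotyledon mesophyll. isotig45613 was at 0.766 in young needle vascular tissue and 407 in cotyledon vascular tissue (464 reads), a ratio of 0.00188 (4.76e-05 to 0.0106). In mesophyll it was at 69.0 in young needles and 94.3 in cotyledons. With each library scaled to its own total the mesophyll log2 differences were -1.51 for isotig29838 and -1.07 for isotig45613, past 2-fold. Young needle vascular tissue was the lowest of the 4 libraries for both.

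The 2 named transcripts apart in opposite directions were each seen in 1 tissue of each leaf type, which did not hold for every transcript of the group. Of the 219 higher in mesophyll and lower in vascular tissue, 128 (58.4%) had reads in young needle vascular tissue. In cotyledon mesophyll 145 (66.2%) of them had reads. Of the 834 in the other orientation, 252 (30.2%) had reads in young needle mesophyll and 260 (31.2%) in cotyledon vascular tissue. unigene21432 was at 357 in young needle mesophyll (243 reads) and at 0 in cotyledon mesophyll, against 0 in young needle vascular tissue and 405 in cotyledon vascular tissue (462 reads). unigene425 showed the reverse, at 0 in young needle mesophyll and 218 in cotyledon mesophyll (259 reads), against 244 in young needle vascular tissue (318 reads) and 0 in cotyledon vascular tissue. Each thus had reads in mesophyll and none in vascular tissue of 1 leaf type, and the reverse in the other.

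**Figure D3:**
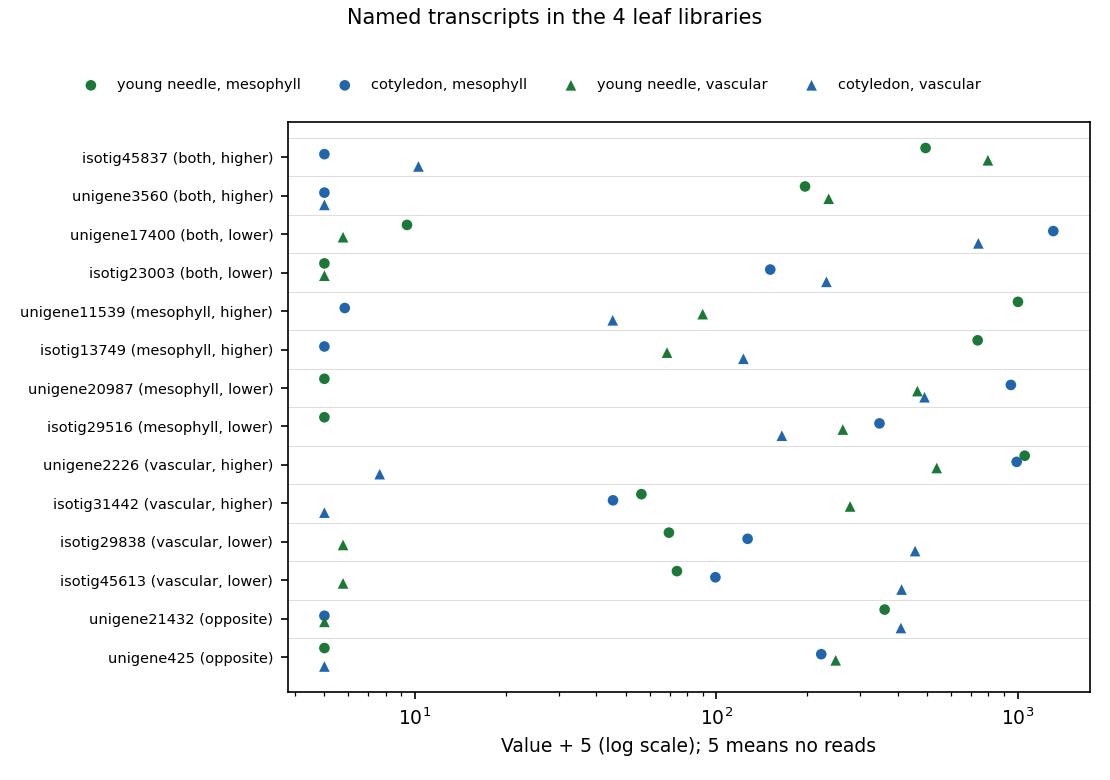
Normalised value plus 5 (horizontal axis, log scale) of 14 named transcripts (vertical axis) in the 4 leaf libraries, with no error bars because each point is 1 library. Circles are mesophyll and triangles vascular tissue, green is young needle and blue cotyledon, and 5 means no reads. In the top 4 rows both tissues separate green from blue, and in the bottom 2 rows the order of the colours is opposite in the 2 tissues.

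The transcripts that ranked highest in the leaf libraries had reads in all 4 of them. isotig01574 ranked highest in 3 of the leaf libraries, at 30533 in young needle mesophyll and 21463 in cotyledon mesophyll. In vascular tissue it was at 4695 in young needles and 25206 in cotyledons, a ratio of 0.186 (95% exact interval 0.181 to 0.191). Its mesophyll log2 difference of 0.51 was -0.17 with each library scaled to its own total, and its vascular one of -2.42 was -1.02 after quantile normalisation, inside the threshold. isotig00218, highest in young needle vascular tissue, was at 14196 in young needle mesophyll and 3067 in cotyledon mesophyll, 4.63-fold higher (4.46 to 4.81), and at 5405 in young needle vascular tissue and 8475 in cotyledon vascular tissue. With each library scaled to its own total its mesophyll log2 difference was 1.53 instead of 2.21, below the threshold. With quantile normalisation the mesophyll difference was 0.93 and the vascular one 1.02, where it was -0.65 with the deposited scaling.

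Over both tissues together, no leaf-type difference passed a test. The test took the spread that organ and tissue group leave over among the 10 vascular and ground tissue libraries of 5 organs as its error. None of 11163 transcripts passed (0% called; limma, Benjamini-Hochberg adjusted p under 0.05, lowest adjusted p = 0.324). Before adjustment 837 had p under 0.05, where 558 would be expected by chance. Of these 837, 360 were higher and 477 lower in young needles. With the 4 leaf libraries alone, 82 of 3708 had p under 0.05 before adjustment (limma), fewer than the 185 expected by chance. On the recovered reads edgeR called 0 and DESeq2 called 285, 165 higher and 120 lower. The 1156 of edgeR before adjustment were 661 higher and 495 lower, so the balance of direction depended on the tool. For isotig45837 the log2 difference was 6.46 ± 1.33 (SE, limma adjusted p = 0.324), for unigene3560 5.43 ± 1.36 (0.324), for unigene17400 -7.07 ± 1.67 (0.324) and for isotig23003 -5.23 ± 1.31 (0.324). Each of the 4 was chosen for a large difference of the same direction in both tissues. These estimates use the same leaf values and are not independent of that choice. The median SE was 1.33 over all transcripts tested.

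Whether a leaf-type difference itself differed between tissues was tested as the vascular step minus the mesophyll step, against the spread of the tissue difference over hypocotyl, root and developing root. No transcript passed (0% of 11163; limma, lowest adjusted p = 0.256). Before adjustment 1597 had p under 0.05, where 558 would be expected by chance. In 1140 of the 1597 the difference was the higher in vascular tissue. After quantile normalisation it was the higher there in 717 of 1275, so this lean depended on the scaling. edgeR called 0 (1804 before adjustment) and DESeq2 called 241. Leaving out any of the 6 libraries of hypocotyl, root and developing root left the error resting on 2 organs. limma then called 646 without root cortex and 641 without root vascular tissue, and 0 without either hypocotyl or either developing root library. The difference was -12.53 ± 2.49 for unigene21432 and 11.12 ± 2.32 for unigene425 (SE, limma adjusted p = 0.256 for both). It was -6.43 ± 2.01 for unigene11539 (adjusted p = 0.260), 7.49 ± 2.31 for unigene20987 (0.256) and 6.05 ± 2.86 for unigene2226 (0.367) in the same limma fit. These transcripts were named for the size of their differences in the same leaf libraries, so the estimates are not independent of that choice. By this test no difference was shown to be limited to 1 tissue, and the counts by tissue above rest on the rule of size.

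Levels in the other 10 libraries, which the rule did not use, were compared between the patterns. Emerging needles did not separate the transcripts higher from those lower in young needles in both tissues. A value of 10 or more was reached there by 203 of 305 higher (66.6%) and 301 of 478 lower transcripts (63.0%), against 48.0% of all measured, and the median log2(value + 5) levels were 4.63 and 4.59, against 3.83. The apical meristem had a median of 4.08 for the higher and 3.70 for the lower set, against 3.54 over all measured. In hypocotyl cortex both sets had a median of 3.65, against 3.13. The sets did differ in hypocotyl vascular tissue, with medians of 5.14 for the higher and 4.06 for the lower set (4.29 over all measured), and in the pith, with 3.67 and 4.81 (3.96 over all measured). These are the libraries most correlated with young needle vascular tissue and cotyledon mesophyll. Requiring a 4-fold difference in both tissues selects transcripts that reach 15 in at least 2 leaf libraries.

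Of the 4 sets apart in a single tissue, those high in young needle mesophyll or in cotyledon vascular tissue were the most often low in the other 10 libraries. Of the 1415 higher in young needle mesophyll, 449 (31.7%) stayed under 10 in all 10 other libraries, emerging needles among them, as did 455 (34.1%) of the 1334 lower in young needle vascular tissue. The shares were 12.3% for the 2208 lower in young needle mesophyll, 9.90% for the 2202 higher in young needle vascular tissue and 11.2% for all measured. Among the sets apart in both tissues in the same direction they were 1.64% (5 of 305, higher) and 4.60% (22 of 478, lower). Most of each single-tissue set reached 10 in that tissue alone. This held for 1160 of the 1415 and 1613 of the 2208 in mesophyll, and 2009 of the 2202 and 1153 of the 1334 in vascular tissue. All measured transcripts include 5962 that reached 10 in both tissues, so they are not a matched background for these sets. Every one of the 878 transcripts with 200 or more reads in young needle vascular tissue also had reads in hypocotyl vascular tissue, and every one of 741 in cotyledon mesophyll had reads in the hypocotyl pith. Such complete overlap was not seen for the 823 of young needle mesophyll or the 877 of cotyledon vascular tissue, of which 62 and 31 lacked reads even in the library that held the most of them. Without the hypocotyl vascular and pith libraries the 4 single-tissue shares were 35.0% and 25.4% for mesophyll higher and lower, and 33.2% and 41.0% for vascular higher and lower, against 20.8% of all measured.

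**Figure D4:**
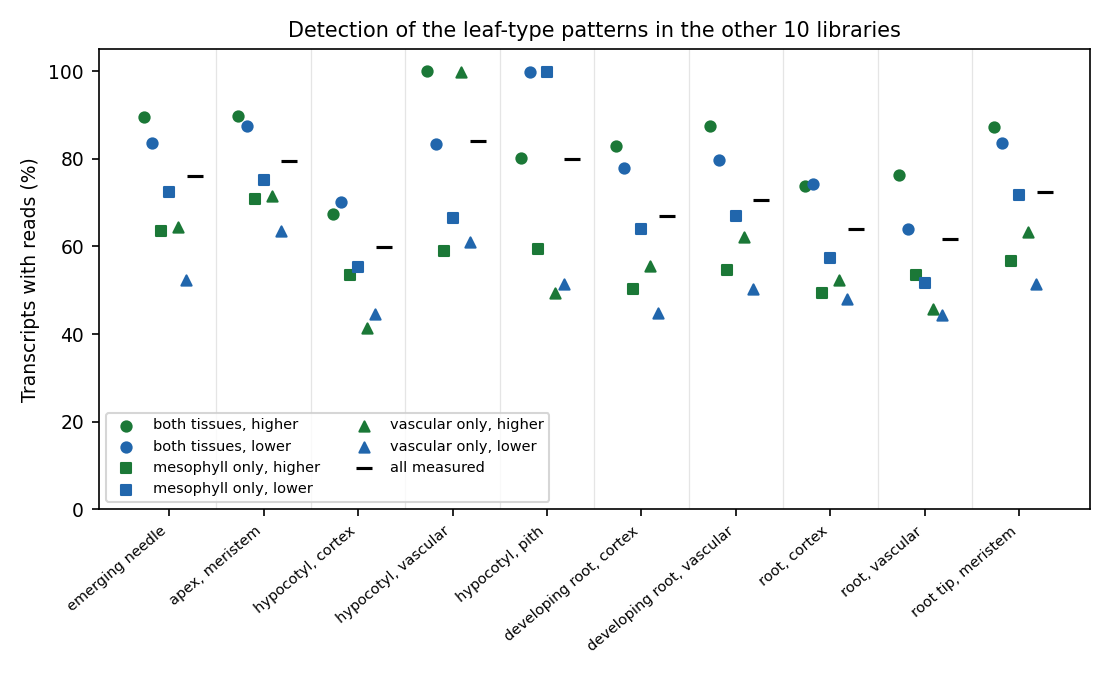
Share of transcripts with at least 1 read (vertical axis, %) in each of the other 10 libraries (horizontal axis), for transcripts 4-fold higher (green) or lower (blue) in young needles in both tissues (circles), in mesophyll (squares) or vascular tissue (triangles) with under 2-fold in the other tissue, and for all measured transcripts (black bars). Hypocotyl vascular tissue and pith come close to 100% for the sets high in young needle vascular tissue and cotyledon mesophyll.

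The leaf pair was set beside the other 9 pairs of organs under the same rule. The share of measured transcripts 4-fold apart between young needles and cotyledons, 44.5% in ground tissue and 42.7% in vascular tissue, lay within the range of the other pairs, 27.8% to 46.4% and 11.9% to 48.9%. Agreement in direction between the tissues was lowest for the leaf pair: 783 of 1836 transcripts apart in both (42.6%), followed by cotyledon against hypocotyl (746 of 1479, 50.4%) and young needle against root (1453 of 2298, 63.2%). The highest was 93.9% for hypocotyl against developing root. The 4 pairs that include the developing root ran from 84.6% to 93.9%, with 87.4% for developing root against root. In the developing root 5 of 597 vascular transcripts with 200 or more reads lacked reads in cortex, against 37 of 506 in hypocotyl and 165 of 1361 in root. This cutoff was not adjusted for depth, which was 684928 reads in developing root vascular tissue and 1536389 in root vascular tissue. Ground tissue libraries also differed, from 519134 reads in hypocotyl cortex to 883851 in cotyledon mesophyll. In young needles 186 of 878 lacked reads in mesophyll, and in cotyledons 128 of 877. The shares were not set beside those that the numbers higher and lower in each tissue alone would give. In the leaf pair these leaned in opposite directions, 2304 higher and 4164 lower in mesophyll, and 3814 and 2386 in vascular tissue. In young needle against hypocotyl both leaned to lower, with 2432 and 4813 in ground tissue and 97 and 1803 in vascular tissue. The order of the pairs therefore mixes agreement with this balance. What part likeness between tissue libraries of 1 organ has in these shares was not tested, the pairs share libraries, and their order was not tested.

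**Figure D5:**
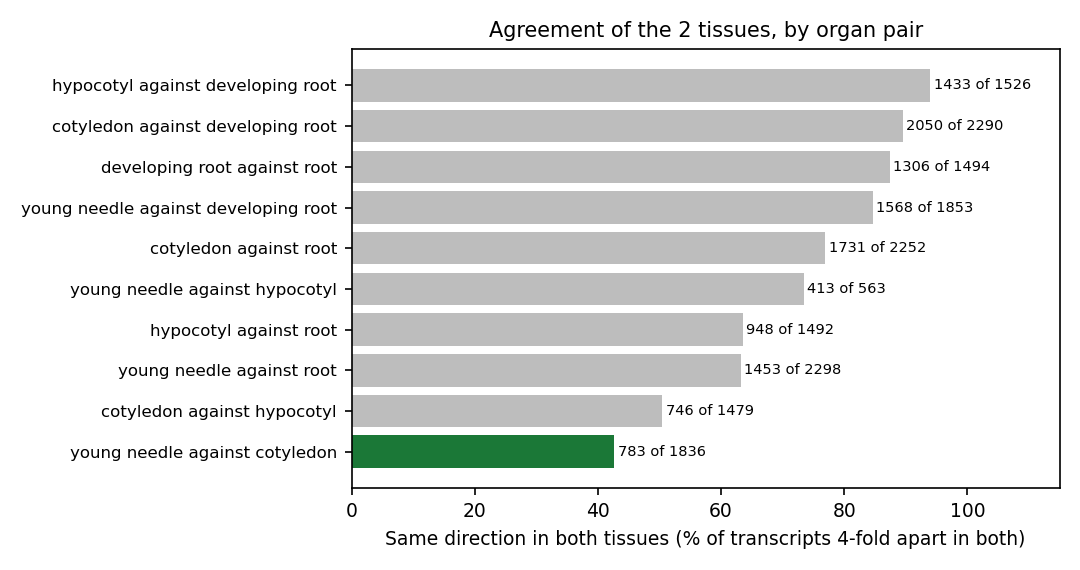
Share of transcripts with the same direction in both tissues among those 4-fold apart in both (horizontal axis, %), for the 10 pairs of organs (vertical axis), with the counts at the bar ends. Young needle against cotyledon, in green, is lowest at 42.6%, and hypocotyl against developing root is highest at 93.9%. The shares are not adjusted for the numbers higher and lower in each tissue, which differ between pairs.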

How the data were processed

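The deposited table holds 1 normalised signal per transcript for each of 14 libraries. The submitters' processing notes name FastQC, BWA and edgeR, and versions, reference assembly and low-count filter are not given in the sources used here. Every value of the deposited signal was a whole multiple (within 0.001) of what 1 read is worth, 0.766 to 1.47 in the leaf libraries, so whole reads were recovered. Library totals ran from 519134 to 1536389 reads.

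Transcripts at 10 or more in at least 1 of the 4 leaf libraries were measured, and a difference of 2 or more in log2(value + 5), 4-fold, in either direction counted. Folds against a library without reads use 3 reads per library as the limit, and ratios carry 95% exact conditional binomial intervals. Intervals cover counting error only, since amplified reads are not independent molecules.

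Tests used limma 3.58.1 in R 4.3.3 with a mean trend, on the deposited values of 10 libraries, with a minimum of 10 reached by 3 or more of them. Organ and tissue group were terms, and the difference between tissues had a tissue term of its own for each leaf type. As the labels name no separate seedlings, p-values measure the spread between organs and tissues, and libraries of 1 organ may vary together. edgeR 4.0.16 and DESeq2 1.42.0 were run on the recovered reads. The scripts were tested on simulated data.

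Up to 2 transcripts higher and 2 lower were named per pattern, those with the largest difference (for both tissues, the largest smaller difference) and 25 or more reads in the higher library, with both libraries of the other tissue at 10 or more for single-tissue patterns. The opposite pattern had 1 each way, and the highest transcript of each leaf library was added. Gene and marker lists were void without gene names. The comparison, rule and lists were chosen with earlier results of these data known.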

Additional observations from a re-analysis of the deposited data

Results flagged for a closer look

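The leaf-type difference was 4-fold or more with opposite signs in mesophyll and vascular tissue for 1053 transcripts, 7.25% of the 14522 measured. They were flagged for the change of sign, and not for their number. Among the 5962 measured in both tissues, 34.4% of those lower in mesophyll were higher in vascular tissue, against 27.9% of all 5962. In the other orientation it was 20.6% against 19.2%, and over all 14522 both overlaps lay below the background. With 1 library in each arm, the sign in a tissue rests on a single pair of libraries. The interaction test called none of 11163 transcripts (limma, adjusted p under 0.05). unigene21432 differed by 6.18 in mesophyll and -6.36 in vascular tissue on the log2(value + 5) scale, young needle minus cotyledon. unigene425 differed by -5.48 in mesophyll and 5.64 in vascular tissue. Both were picked for the size of these differences, and their limma adjusted p for the difference between tissues was 0.256.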

How the results depend on the processing

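Counts by the rule of size depended on the pseudocount, the threshold and the abundance filter. The filters by mean value and by measurement in both tissues were chosen after seeing the data. Mesophyll differences (6468) became 2122 with 25 added before the logarithm, 3637 with 10 or more in at least 2 of the 4 libraries, 3605 at 8-fold, 1862 at a mean of 50 or more and 3487 among transcripts measured in both tissues. Vascular differences (6200) became 1786, 2929, 3446, 1174 and 2808 under the same settings. For the 305 higher in both tissues the count was 635 with 1 added, 68 with 25 added, 107 at 8-fold and 189 at a mean of 50 or more. The 478 lower in both became 817, 45, 151 and 146, and the 1053 opposite 1918, 160, 351 and 355. For mesophyll alone (3623) the counts were 1425 with 25 added, 983 with 10 or more in 2 libraries, 2066 at 8-fold, 767 at a mean of 50 or more and 850 when measured in both tissues, and for vascular tissue alone (3536) they were 1153, 481, 1966, 269 and 374. Fewer transcripts were tested under the filters. With 25 added, 1238 mesophyll differences were higher and 884 lower in young needles, so the balance turned. The share with the same direction among those apart in both tissues ran from 40.3% (libraries scaled to their own totals) to 48.6% (mean of 50 or more) over all settings.

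DESeq2 called 285 transcripts for the leaf types over both tissues and 241 for the difference between tissues, where limma and edgeR called 0. The cause was not tested. Leaving out 1 library at a time, limma called 0 for the leaf types over both tissues throughout, and between 0 and 646 for the difference between tissues, the highest without root cortex. No difference of 4-fold or more of a named transcript changed sign under the pseudocounts and scalings tried. Smaller ones did, in mesophyll for isotig01574, unigene2226 and isotig31442 and in vascular tissue for isotig00218 and unigene20987. No paired analysis was possible because each tissue had 1 library and the labels give no replicate numbers. Without a second library per tissue, counts by size could not be recomputed with a library left out.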
